A study of Homo sapiens with 16 samples.

Results

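NODAL was added for 24 h to H1 cells, an established human embryonic stem cell line, while glycolysis was restrained with 2-deoxyglucose (2DG), and transcript levels were compared with cells given 2DG alone. The members are 4 of the study's 16 RNA sequencing libraries, 2 of E7+NODAL+2DG and 2 of E7+2DG, chosen by their labels, and 16714 of the 17738 genes in the table had values high enough to test. All groups are wild-type H1 cells in E7, a defined medium that is E8 without its TGFb and so keeps the DMEM/F12 base, selenite, ascorbate, transferrin, insulin and FGF2. E7+2DG cells had 2DG at 3 mM, and E7+NODAL+2DG cells had the same 2DG with NODAL at 100 ng/mL. The other groups used here are E7 alone, E7+NODAL without 2DG, and, with 2DG, E7+TGFb+2DG (TGFb at 1.74 ng/mL) and E7+ActivinA+2DG (Activin A at 100 ng/mL), each with 2 libraries, and E7+TGFb without 2DG serves as the control of E7+TGFb+2DG. The remaining group, E7+ActivinA without 2DG (Activin A at 100 ng/mL, 2 libraries), enters the model and its error estimate but none of the comparisons. H1 is a single line, and no result here extends to another. The labels do not say whether the 2 libraries of a group came from separate cultures, so p-values measure only the spread between these samples, which may be technical.

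NODAL is a secreted ligand of the TGFb superfamily. It binds Activin receptors with the help of a co-receptor, and the receptors phosphorylate SMAD2 and SMAD3, which enter the nucleus with SMAD4 and act with DNA-binding partners such as FOXH1. Among its targets are NODAL itself and its own secreted inhibitors LEFTY1 and LEFTY2, and in human pluripotent cells the pathway maintains the undifferentiated state at moderate activity and drives mesendoderm, the precursor of mesoderm and endoderm, at high activity. 2DG is a glucose analog that is taken up and phosphorylated but not carried further through glycolysis, and it also interferes with protein glycosylation.

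The promoters of MIXL1 and NODAL are shown because both genes rose with NODAL under 2DG and the pathway's partners bind known motifs. They are from RefSeq (GRCh38.p14), run 5′ to 3′ on the gene's own strand from 250 to 51 bases before the start, and cover chr1:226223414-226223613 on the plus strand for MIXL1 and chr10:70441732-70441931 on the minus strand for NODAL. Capitals mark matches on either strand to the FOXH1 motif AATCCACA, which reads TGTGGATT on the opposite strand, or to the SMAD motif CAGAC, which reads GTCTG there, and the motifs do not overlap each other here.
MIXL1: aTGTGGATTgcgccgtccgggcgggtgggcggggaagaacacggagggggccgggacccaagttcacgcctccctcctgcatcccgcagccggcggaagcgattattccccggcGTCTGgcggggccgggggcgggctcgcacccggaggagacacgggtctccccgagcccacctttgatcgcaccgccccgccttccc
NODAL: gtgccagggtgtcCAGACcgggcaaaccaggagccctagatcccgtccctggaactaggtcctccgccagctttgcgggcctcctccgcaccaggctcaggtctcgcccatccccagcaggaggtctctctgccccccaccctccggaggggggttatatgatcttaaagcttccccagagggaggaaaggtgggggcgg
MIXL1 had a FOXH1 match starting 249 bases before the start and a SMAD match at 136 bases, both on the strand opposite to the gene. NODAL had a SMAD match on its own strand at 237 bases and no FOXH1 match in this window. The NODAL window lies inside the gene span given below from GENCODE 29, which places the start further upstream than RefSeq does. The FOXH1 motif was in 201 of 35116 windows of the same kind (0.572%), and in 1 of the 34 matched promoters of genes higher with NODAL under 2DG, that of MIXL1. The SMAD motif was in 32.4% of all windows and in 14 of those 34 promoters (41.2%), beside 9 of the 22 matched promoters of genes that fell (40.9%). A match is a description of the letters and not a bound site. LEFTY1, LEFTY2 and FGF8 are named without a promoter.

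Recovered reads per library ranged from 14600479 to 17630329. Values are normalised read counts, the counts divided by 1 size factor per library, and a fold change is the difference of log2(value + 1) with its standard error (SE) from a single limma model of all 16 libraries. A gene was called at a Benjamini-Hochberg adjusted p under 0.05. The labelled cell type held to its markers: all 10 pluripotent stem cell markers were in the table, and their summed level was 145174 to 151303 in E7+2DG and 147107 to 149175 in E7+NODAL+2DG. Summed levels of other types were small. The 5 trophoblast and amnion markers in the table, of 12, summed to 357 to 400 in E7+2DG and 296 to 298 with NODAL, and the 5 definitive endoderm markers, of 10, to 225 to 248 and 248 to 259, with SOX17 and GATA6 not in the table. The 8 neural markers, of 10, summed to 986 to 998 and 769 to 828. The 6 fibroblast markers, of 10, summed to 3680 to 3824 and 4208 to 4339, and the 5 mesoderm and endothelium markers, of 10, to 2617 to 2819 and 2407 to 2589. The part of these shifts in the results below was not tested. In bulk RNA, fewer cells of a type and less RNA per cell cannot be told apart.

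With 2DG present, NODAL raised 71 genes (0.425%) and lowered 35 (0.209%) of the 16714 tested (0.634% called in all). Its own pathway genes LEFTY1, LEFTY2 and NODAL were among the risers, with the mesendoderm genes FGF8 and MIXL1 and the transcription factor genes GATA2 and EBF2. The genes that fell include LIMCH1, CYP1B1, ANXA1, OLIG3, CUZD1 and APELA. The median log2 fold change was 1.10 in the risers and -0.92 in the genes that fell, and 41 and 16 of them changed by at least 1. The 2 groups of libraries did not overlap in any of the 106 called genes, nor in 60.3% of all genes tested. The median over all genes tested was 0.013. With 2DG and NODAL together, 38 of the 71 risers were called above E7, 5 below, and 28 were not called. Of the 35 that fell, 0 were called above E7, 22 below, and 13 were not called. Of all 16714 genes, that comparison called 1789 higher and 1742 lower. It shares the E7+NODAL+2DG libraries that chose the 106 genes.

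The number of calls depended on libraries outside the comparison, because one error estimate is shared across the 8 groups. Without the 4 Activin A libraries, whose replicates were the least alike, 2951 of 16512 genes were called (17.9%), 1198 higher (7.26%) and 1753 lower (10.6%), and all 106 were kept. The 4 libraries of the comparison alone gave 3426. Leaving out 1 library of E7+2DG left 15 (without replicate 1) or 11 (without replicate 2), and leaving out 1 of E7+NODAL+2DG also left 15 or 11. Of the 106 genes these 4 fits kept 13, 11, 15 and 10. The count was 1768 or 1758 without 1 library of E7+ActivinA, 299 or 295 without 1 of E7+ActivinA+2DG, 61 without either of E7+TGFb+2DG, 56 without either of E7+NODAL and 58 without either of E7+TGFb. Scaling to the same total gave 107 higher and 28 lower. At an unadjusted p under 0.05, 2795 genes passed (16.7%). Beside genes that missed the threshold with all 16 libraries, the adjusted p without the 4 Activin A libraries is given. Across genes, the fold change fell with transcript length (Spearman's rho = -0.34, n = 16335 genes, which are not independent replicates), and mitochondrial genes held 5.65 and 5.88% of reads in E7+2DG and 6.49 and 6.12% in E7+NODAL+2DG. The part of either in the fold changes was not tested.

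**Figure D1:**
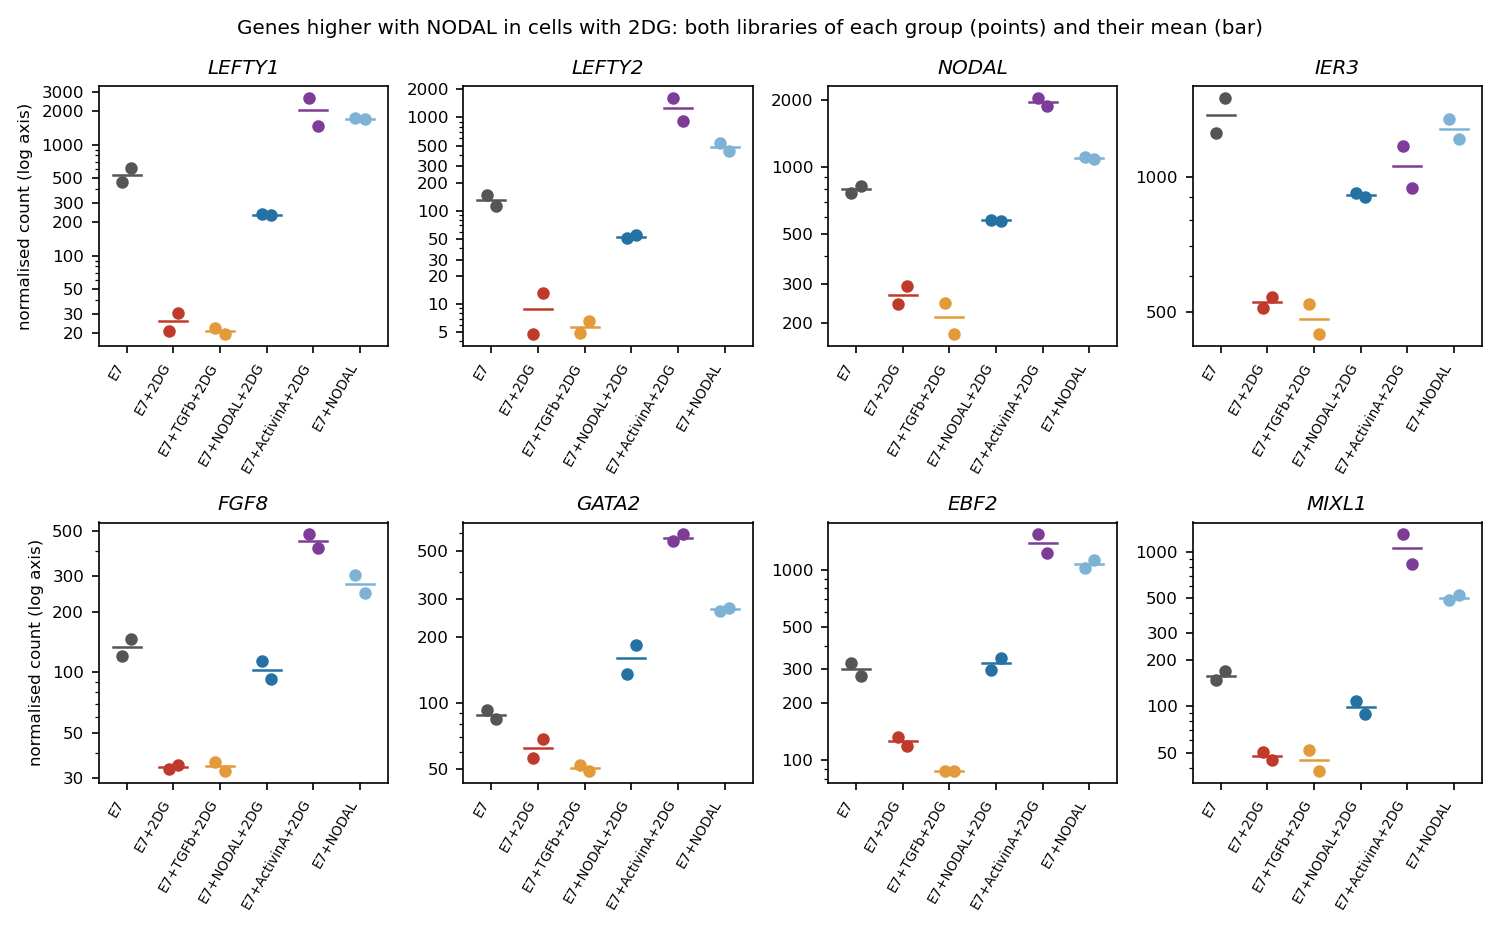
Normalised counts (log axis) of 8 genes called higher with NODAL under 2DG, in both libraries (points) of 6 groups, with the mean as a bar. In each panel both E7+NODAL+2DG points lie above both E7+2DG points, and below both E7+ActivinA+2DG points (LEFTY1, LEFTY2, NODAL, IER3, FGF8, GATA2, EBF2 and MIXL1). Of all 71 risers, 14 were called higher with Activin A than with NODAL under 2DG, and 33 lower.

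LEFTY1 and LEFTY2 encode secreted feedback inhibitors of the pathway, and LEFTY1 had the largest rise of the 71. LEFTY1 (chr1:225886282-225911382, minus strand, hg38 with GENCODE 29) read 20.9 and 30.4 normalised counts in the libraries of E7+2DG and 237 and 232 in those of E7+NODAL+2DG. Without 2DG it read 463 and 613 in E7 and 1749 and 1691 in E7+NODAL. The 4 groups did not overlap, and NODAL under 2DG left the gene between E7+2DG and E7. The rise was 3.17 on the log2 scale (SE 0.26, adjusted p = 5.3e-05), a call kept in each setting tried and without any 1 library, and the level stayed below E7 by a log2 difference of -1.18 (adjusted p = 0.0072), in a comparison with 21.1% of genes called that shares the E7+NODAL+2DG libraries.

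LEFTY2 (chr1:225936598-225941489, minus strand), a near-identical neighbour whose values depend on how shared reads were assigned, read 4.74 and 13.1 with 2DG alone and 50.9 and 54.4 with NODAL added. E7 had 148 and 114, so LEFTY2 was also still short of E7 (log2 -1.29, adjusted p = 0.02). The rise was 2.58 (SE 0.35, adjusted p = 0.0052). It missed the threshold without E7+2DG replicate 1 or without either E7+NODAL+2DG library, with adjusted p up to 0.085.

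NODAL (chr10:70432315-70447951, minus strand), the gene of the added ligand, read 244 and 291 in E7+2DG and 581 and 574 in E7+NODAL+2DG, against 765 and 825 in E7. The added protein is not measured by RNA sequencing, so these are transcripts of the cells' own gene. They rose by 1.11 (SE 0.18, adjusted p = 0.014), and the level did not pass the test against E7 (log2 -0.46, SE 0.18, adjusted p = 0.089). The rise was no longer called when any 1 of the 4 libraries compared was left out, with adjusted p up to 0.16.

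Of the 17 ligand, feedback and co-receptor genes tested, of 22 listed, these 3 rose and 0 fell, with a median of 0.09, beside 0.013 for all genes. The ligand gene GDF3 read 365 and 426, then 543 and 578 with NODAL (log2 0.50, adjusted p = 0.24, and 0.0031 without the Activin A libraries). TDGF1, the co-receptor that NODAL needs, read 11700 and 12700, then 9966 and 9892 (log2 -0.30, adjusted p = 0.2, and 0.0024 without those libraries). INHBE, an inhibin beta subunit gene, read 1672 and 1720, then 969 and 892 (log2 -0.87, adjusted p = 0.21, and 6.1e-05). All 3 had groups that did not overlap, as did 60.3% of all genes tested, and none was called with all 16 libraries.

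Of the 26 receptor, SMAD and intracellular brake genes 0 were called by limma or edgeR and 3 were higher by DESeq2, with a median of -0.02. At an unadjusted p under 0.05, 6 were higher and 2 lower, against 8.08% and 8.65% of all genes. Without the Activin A libraries 6 were called higher and 3 lower, against 7.26% and 10.6%. The signal carriers SMAD2 (log2 0.07), SMAD3 (0.23) and SMAD4 (0.06) and the partner gene FOXH1 (-0.21) had adjusted p of 0.65, 0.4, 0.79 and 0.45. Fold changes were positive in 13 and negative in 13. Among the brakes, SMAD7, PMEPA1 and BAMBI were higher without passing the test, while the corepressor genes SKIL (-0.09) and SKI (-0.22) and the ubiquitin ligase genes SMURF1 (-0.14) and SMURF2 (-0.05) had negative values (adjusted p = 0.7, 0.41, 0.63 and 0.87). SMAD7, which targets the receptors for degradation, read 586 and 684, then 835 and 761, against 998 and 1078 in E7 (log2 0.33, adjusted p = 0.17, and 0.014 without the Activin A libraries). PMEPA1, which keeps SMAD2 and SMAD3 from the receptors, read 497 and 622, then 748 and 746, against 719 and 716 in E7 (log2 0.43, adjusted p = 0.082, and 0.0045). BAMBI, a decoy receptor, read 239 and 284, then 390 and 406, against 348 and 416 in E7 (log2 0.61, adjusted p = 0.087, and 0.0022). For PMEPA1 and BAMBI the E7+NODAL+2DG values thus lay at or near those of E7, with log2 differences of 0.06 and 0.07 (adjusted p = 0.72 and 0.79).

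Among 20 target genes tested, of 26 listed, 3 rose and 0 fell, with a median of -0.11. GATA2, a haematopoietic and trophoblast transcription factor gene, read 56 and 68.5, then 136 and 184, against 92.9 and 84.2 in E7. It rose by 1.34 (SE 0.17, adjusted p = 0.0035) to above E7 (log2 0.83, adjusted p = 0.0049), and its rise missed the threshold without E7+2DG replicate 1 or E7+NODAL+2DG replicate 2 (adjusted p up to 0.08).

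Some cytoskeletal members of the target list were lower with NODAL without passing the test. TAGLN, an actin-binding protein of smooth muscle, read 1233 and 1389, then 644 and 709 (log2 -0.95, adjusted p = 0.1, and 1.2e-05 without the Activin A libraries). TPM1, a tropomyosin, read 4058 and 4631, then 2524 and 2489 (log2 -0.79, adjusted p = 0.066, and 4.6e-06). Without those libraries the list had 7 members higher and 4 lower, against 7.26% and 10.6% of all genes.

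Mesendoderm genes had the highest median of the lists described, 0.88 over 13 tested, with 2 rising, 0 falling and 11 of 13 positive. FGF8 (chr10:101770130-101780369, minus strand), a fibroblast growth factor of the primitive streak and also a member of the target list, read 33.2 and 34.8, then 114 and 93.2, against 121 and 146 in E7. It rose by 1.57 (SE 0.20, adjusted p = 0.0035) and did not pass the test against E7 (log2 -0.36, SE 0.20, adjusted p = 0.22). Without either E7+2DG library or without E7+NODAL+2DG replicate 1 the rise had an adjusted p of up to 0.088. MIXL1, the homeobox gene whose promoter is shown above, read 50.3 and 44.6, then 108 and 89, against 147 and 168 in E7. Its rise of 1.03 (SE 0.21, adjusted p = 0.038) left it below E7 (log2 -0.68, adjusted p = 0.032) and missed the threshold in 3 settings (quantile normalization, a pseudocount of 8 and edgeR) and without any 1 library of E7, E7+2DG, E7+NODAL+2DG, E7+NODAL or E7+TGFb (adjusted p up to 0.37).

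OTX2, a homeobox gene of the anterior embryo on the same list, was lower: it read 408 and 459, then 291 and 314, against 224 and 211 in E7 (log2 -0.52, SE 0.13, adjusted p = 0.082, and 0.0034 without the Activin A libraries). Without those libraries 4 of the 11 members then tested were called higher and 1 lower, against 7.26% and 10.6% of all genes. GSC, EOMES and T had few reads. The list's median of 0.88 is the value of EOMES, which ran from 0.41 to 1.05 over the settings and libraries left out. That of T ran from -0.39 to 1.07. GSC, a homeobox gene of the organizer, read 9.49 and 6.53, then 34.5 and 16.8 (log2 1.50, adjusted p = 0.082, and 0.016 without the Activin A libraries). EOMES read 3.79 and 3.26, then 6.36 and 8.38 (log2 0.88, adjusted p = 0.29), and T, also called TBXT, 4.74 and 1.09, then 2.72 and 4.19 (log2 0.34, adjusted p = 0.76).

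The risers outside the pathway lists were EBF2, ABHD12B, PEG3, SBSPON, MIR205HG and 4 loci with clone-based names among those with the largest change. EBF2, an early B-cell factor family transcription factor gene, read 133 and 118, then 300 and 346, against 323 and 278 in E7. It rose by 1.35 (SE 0.17, adjusted p = 0.0031), to a level that did not pass the test against E7 (log2 0.10, SE 0.17, adjusted p = 0.7). The rise was not called without replicate 2 of E7+2DG or of E7+NODAL+2DG (adjusted p up to 0.079). ABHD12B, a serine hydrolase family gene, read 153 and 133, then 405 and 424, against 168 and 195 in E7. Its rise of 1.53 (SE 0.13, adjusted p = 5.3e-05) held in each setting and without any 1 library, and took it above E7 (log2 1.19, adjusted p = 0.00021).

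PEG3, an imprinted zinc finger gene, read 46.5 and 43.5, then 139 and 137, and 30.6 and 28.4 in E7 (log2 1.60, SE 0.24, adjusted p = 0.011). MIR205HG, the host transcript of a microRNA, read 39.9 and 41.3, then 99.9 and 140, against 126 and 124 in E7 (log2 1.52, adjusted p = 0.0096). AC009133.3, whose value depends on the strand setting of the counting, read 42.7 and 40.2, then 139 and 126 (log2 1.65, adjusted p = 0.0074). PEG3 and AC009133.3 were thus higher with NODAL and 2DG than in E7 (log2 2.19 and 1.72, adjusted p = 0.00023 and 0.00058), and MIR205HG was not called against E7 (log2 -0.08, adjusted p = 0.83). The calls for PEG3 and AC009133.3 were lost without any 1 of the 4 libraries compared, with adjusted p up to 0.15 and 0.13. That for MIR205HG was lost without either E7+2DG library or E7+NODAL+2DG replicate 2 (adjusted p up to 0.15).

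In the FGF and ERK feedback list 3 of 18 genes rose and 0 fell, with a median of 0.01. They were FGF8, IER3, an immediate early gene, and SPRY1, a Sprouty inhibitor of receptor tyrosine kinase signalling. IER3 read 511 and 539, then 921 and 902, against 1250 and 1497 in E7 (log2 0.79, SE 0.16, adjusted p = 0.039), still below E7 (log2 -0.58, adjusted p = 0.019). SPRY1 read 757 and 785, then 1121 and 1101, against 953 and 903 in E7 (log2 0.53, SE 0.10, adjusted p = 0.038). DUSP6, an ERK phosphatase, read 1831 and 1928, then 2592 and 2600, against 3846 and 4370 in E7 (log2 0.47, adjusted p = 0.2, and 0.00023 without the Activin A libraries). DUSP6 was chosen after its values were seen. Neither IER3 nor SPRY1 was called without any 1 of the 4 libraries compared, nor, among others, without either E7+TGFb or E7+TGFb+2DG library (adjusted p up to 0.3 each).

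**Figure D2:**
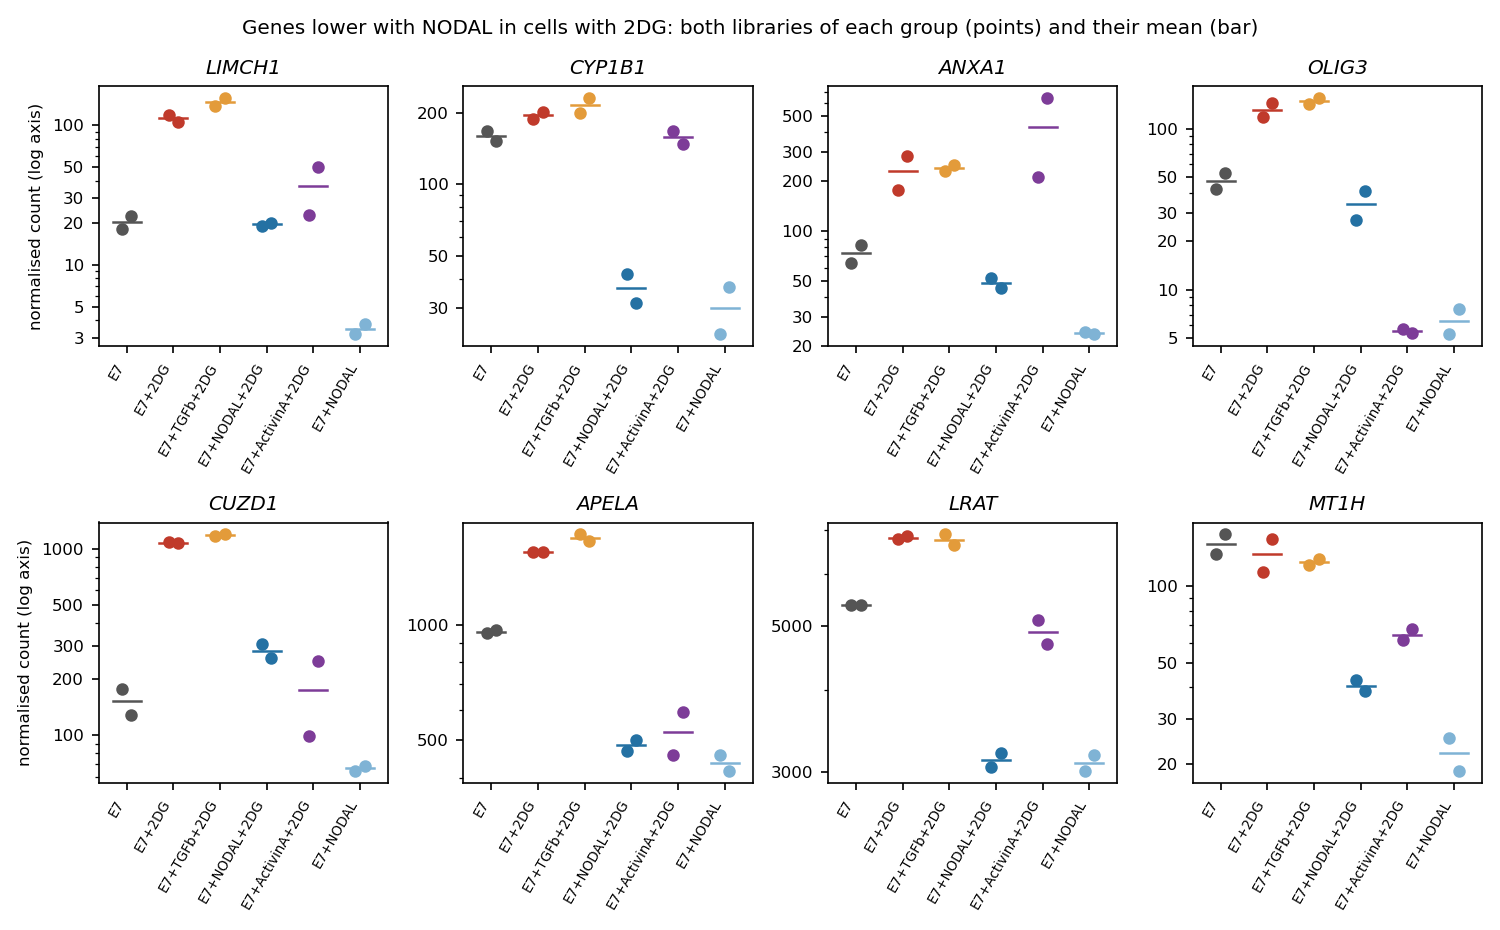
Normalised counts (log axis) of 8 genes called lower with NODAL under 2DG, in both libraries (points) of 6 groups, with the mean as a bar. LIMCH1, ANXA1, OLIG3 and CUZD1 have high values in E7+2DG and E7+TGFb+2DG and lower ones in E7 and E7+NODAL+2DG, while CYP1B1 is at about its E7 level in E7+2DG and falls with NODAL in either medium.

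The genes that fell with NODAL divided by what they did in E7. LIMCH1, which binds non-muscle myosin, read 119 and 107 in E7+2DG and 19.1 and 19.9 in E7+NODAL+2DG, beside 18.2 and 22.3 in E7. It fell by 2.47 (SE 0.41, adjusted p = 0.014), to a level that did not pass the test against E7 (log2 -0.05, SE 0.41, adjusted p = 0.95). ANXA1, a phospholipid-binding annexin, read 178 and 285, then 51.8 and 45, beside 64.2 and 82.2 in E7 (log2 -2.20, SE 0.39, adjusted p = 0.022). OLIG3, a basic helix-loop-helix gene of dorsal neural progenitors, read 118 and 145, then 27.2 and 40.8, beside 42.1 and 52.8 in E7 (log2 -1.94, SE 0.30, adjusted p = 0.012). CUZD1, which has CUB and zona pellucida-like domains, read 1080 and 1077, then 309 and 260, beside 176 and 129 in E7 (log2 -1.93, SE 0.33, adjusted p = 0.017). For these 4 genes the call was lost without any 1 of the 4 libraries compared, with adjusted p from 0.16 to 0.24 at the highest.

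APELA (chr4:164877004-164898965, plus strand), which encodes a secreted peptide made by human embryonic stem cells, read 1546 and 1552, then 469 and 502, beside 952 and 969 in E7. It fell by 1.67 (SE 0.11, adjusted p = 7.8e-06) to below its E7 level (log2 -0.98, adjusted p = 0.00026). LRAT (chr4:154626945-154753118, plus strand), the enzyme that esterifies retinol for storage, read 6786 and 6863, then 3054 and 3200, beside 5390 and 5379 in E7 (log2 -1.13, SE 0.08, adjusted p = 7.8e-06). CYP1B1 (chr2:38066973-38109902, minus strand), a cytochrome P450 that oxidises oestrogens and xenobiotics, read 189 and 202, then 41.8 and 31.4, beside 168 and 152 in E7 (log2 -2.40, SE 0.20, adjusted p = 5.5e-05). These 3 falls held in each setting tried and without any 1 library. LRAT and CYP1B1 were below E7 as well (log2 -0.78 and -2.11, adjusted p = 0.00017 in both).

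IDO1, which degrades tryptophan, read 214 and 222, then 86.3 and 103 (log2 -1.20, adjusted p = 0.017), and MME, the peptidase neprilysin, 486 and 510, then 259 and 270 (log2 -0.91, adjusted p = 0.012). XK, a membrane protein of red cells that carries the Kx antigen, read 135 and 126, then 66.3 and 66 (log2 -0.97, adjusted p = 0.024). OLFM1, a secreted olfactomedin and the 1 called gene of the 19 neuroectoderm genes tested, read 1186 and 1303, then 799 and 792 (log2 -0.64, adjusted p = 0.012). All 4 calls were lost without any 1 of the libraries compared, with adjusted p up to 0.22.

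The metallothioneins are small metal-binding proteins whose transcripts are hard to tell apart. All 7 tested had a negative fold change, with a median of -0.76, and 2 fell. MT1H read 114 and 153, then 42.7 and 38.7, beside 133 and 159 in E7 (log2 -1.68, SE 0.27, adjusted p = 0.013). MT1G read 261 and 335, then 145 and 168, beside 358 and 444 in E7 (log2 -0.92, SE 0.17, adjusted p = 0.03). Both were below E7 (log2 -1.81 and -1.35, adjusted p = 0.00084 and 0.00039), and neither was called without any 1 of the libraries compared. MT1G was also not called without either E7+TGFb library or either E7+TGFb+2DG library.

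Levels of the hairpin transcripts MIR302A and MIR367, chosen after their values were seen, also fell. MIR302A read 31.3 and 22.8, then 1.82 and 3.14 (log2 -3.02, adjusted p = 0.0096), and MIR367 29.4 and 20.7, then 5.45 and 3.14 (log2 -2.31, adjusted p = 0.011). These are few reads from polyadenylated RNA at a cluster that is a hallmark of pluripotent cells, and not mature microRNAs.

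Which changes run opposite to 2DG was asked with 2DG in TGFb medium, E7+TGFb+2DG against E7+TGFb, which shares no library with NODAL under 2DG. Both comparisons still take each gene's spread from the same model. A gene of small spread is thus more readily called in both, and the part of this in the shares below was not tested. It called 730 genes lower (4.37%) and 914 higher (5.47%) with 2DG (9.84% called in all). Of the 730, 25 rose with NODAL under 2DG (3.42% of them, against 0.425% of all genes, and 35.2% of the 71 risers) and 1 fell. Of the 914, 11 fell with NODAL (1.2% of them, against 0.209% of all genes, and 31.4% of the 35) and 3 rose. The median NODAL response was 0.12 in the genes lower with 2DG, with 498 positive and 232 negative, and -0.12 in the genes higher with 2DG, with 294 positive and 614 negative, beside 0.013 for all genes. Without the Activin A libraries the counts were 402 of 2145 (18.7%, against 7.26% of all genes) and 451 of 1966 (22.9%, against 10.6%). Leaving out 1 library of the groups involved brought the 25 to between 3 and 12 and the 11 to between 2 and 5, with the lowest values, 3 and 2, without E7+NODAL+2DG replicate 2.

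The 25 genes lower with 2DG in TGFb medium and higher with NODAL include LEFTY1 (log2 -4.37 with 2DG there), LEFTY2 (-4.10), EBF2 (-2.03), MIXL1 (-1.88), MIR205HG (-1.69), FGF8 (-1.57), NODAL (-1.50), IER3 (-1.14) and GATA2 (-0.91). CTSK, the bone-resorbing protease cathepsin K, is another: it read 48.4 and 37 in E7+2DG, 104 and 104 with NODAL, and 167 and 156 in E7 (rise 1.28, SE 0.23, adjusted p = 0.027). MMP9, a matrix metalloproteinase chosen after its values were seen, read 12.3 and 7.61, then 43.6 and 30.4, and 53.6 and 69 in E7 (rise 1.80, adjusted p = 0.034). On the other side stand CUZD1 (2.82 with 2DG in TGFb medium), LIMCH1 (2.30), ANXA1 (2.11), OLIG3 (1.59), APELA (1.12), IDO1 (0.78), LRAT (0.44) and, chosen after its value was seen, the laminin receptor gene ITGA6 (0.61). ITGA6 read 4294 and 4242 in E7+2DG, 2423 and 2462 with NODAL, and 2577 and 2426 in E7 (log2 -0.81, adjusted p = 0.039).

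**Figure D3:**
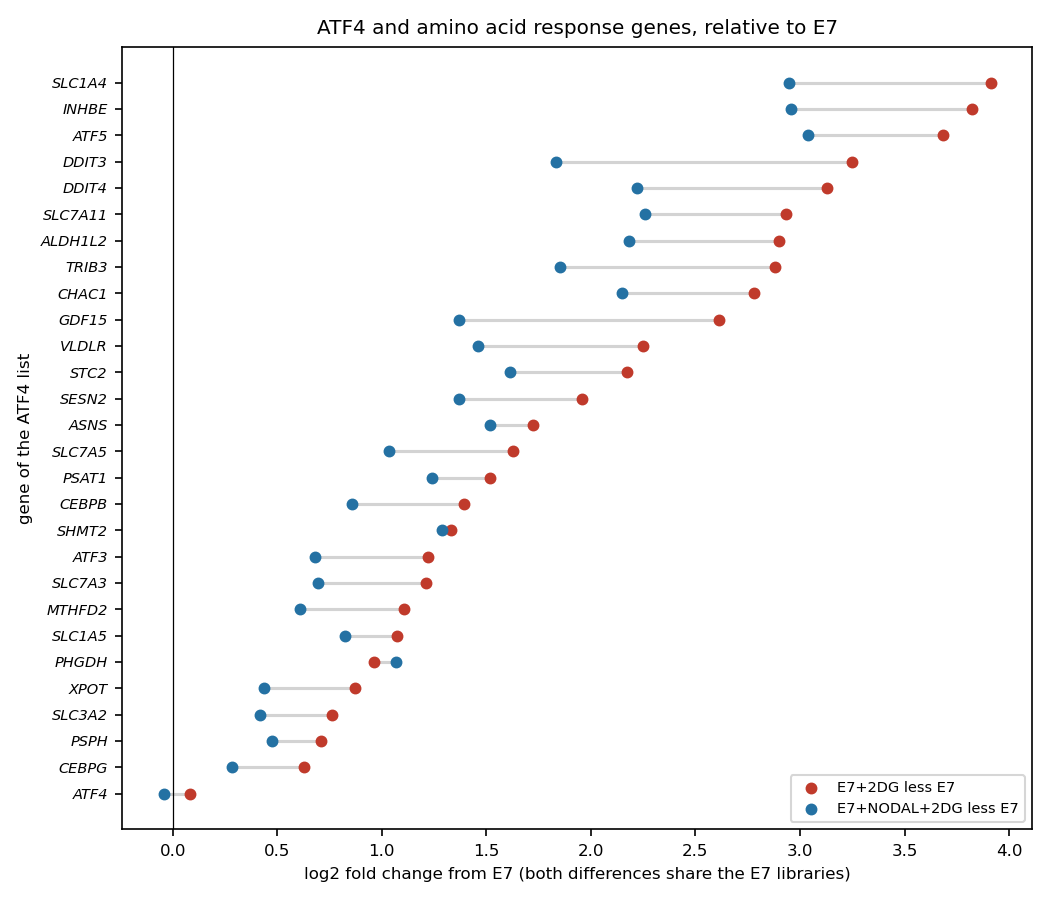
Log2 difference from E7 of the 28 tested genes of the ATF4 and amino acid response list, in E7+2DG (red) and E7+NODAL+2DG (blue), both taken against the same E7 libraries. The blue point lies left of the red one for 27 of the 28 genes, PHGDH being the exception, and 27 of the blue points lie right of 0, ATF4 being the exception.

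The stress genes that 2DG raised were lower with NODAL but did not pass the test with all 16 libraries. The ATF4 pathway turns on amino acid synthesis, amino acid transport and, under lasting stress, the death-linked factor DDIT3, also called CHOP. Of its 28 genes tested 0 were called with NODAL under 2DG by limma or edgeR and 1 was lower by DESeq2. At an unadjusted p under 0.05, 13 were lower and 0 higher, against 8.65% and 8.08% of all genes, and without the Activin A libraries 25 were called lower and 0 higher, against 10.6% and 7.26%. The median was -0.55, the range -1.42 to 0.10, and 27 were negative, while 2DG in E7 (29.4% of genes called, 14.6% higher) had raised 27 of the 28 with a median of 1.68. Without 2DG, NODAL gave a median of -0.31, with 22 of 28 negative, 1 called lower and 0 higher. Fitted without the Activin A libraries, 15 were lower and 4 higher there, against 19.8% and 19.4% of all genes. The interaction was called for 0 of the 28. Without the Activin A libraries it was called lower for 10 and higher for 1, against 2488 lower and 2323 higher of all 16512 genes (29.1% called in all). Against Activin A and TGFb under 2DG the median differences were -0.07 and -0.58, with 0 called in either. DDIT3 read 321 and 428 in E7+2DG and 145 and 132 with NODAL, beside 32.5 and 44.7 in E7 (log2 -1.42, SE 0.42, adjusted p = 0.15, and 0.00076 without the Activin A libraries). TRIB3, a pseudokinase induced by DDIT3, read 778 and 1024, then 448 and 425, beside 114 and 127 in E7 (log2 -1.03, adjusted p = 0.17, and 6e-05).

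The enzyme and transport genes of the list moved less. ASNS, asparagine synthetase, read 13350 and 14330, then 11830 and 12160, beside 4088 and 4284 in E7 (log2 -0.21, adjusted p = 0.62, and 0.027 without the Activin A libraries). PHGDH, the first enzyme of serine synthesis, chosen after its values were seen, read 13760 and 15030, then 15680 and 15240 (log2 0.10, adjusted p = 0.72). Against E7, 23 of the 28 genes were still higher with 2DG and NODAL together, against 10.7% of all genes, and 0 were lower, with a median of 1.33. GDF15, a stress-induced cytokine, read 118 and 153, then 58.1 and 54.4 (log2 -1.24, adjusted p = 0.2, and 0.0072), and ATF3 525 and 648, then 409 and 392 (log2 -0.54, adjusted p = 0.34, and 0.0041).

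TXNIP and ARRDC4, arrestin-like genes that respond to hexose phosphates, stayed far above E7. TXNIP read 1610 and 1720 in E7+2DG and 992 and 1012 with NODAL, beside 51.7 and 83.2 in E7 (log2 -0.73, SE 0.25, adjusted p = 0.18, and 0.0031 without the Activin A libraries). The level with 2DG and NODAL was above E7 by 3.91 on the log2 scale (SE 0.25, adjusted p = 5.2e-06). ARRDC4 read 678 and 704, then 342 and 375, beside 45 and 53.8 in E7 (log2 -0.95, adjusted p = 0.18, and 0.00031). HSPA5, the main chaperone of the endoplasmic reticulum, read 24250 and 25890, then 20270 and 19990, beside 17640 and 18450 in E7 (log2 -0.32, SE 0.09, adjusted p = 0.14, and 0.0012). The glycolytic enzyme HK2 (log2 -0.26, adjusted p = 0.28, and 0.023), the angiogenic factor VEGFA (-0.40, adjusted p = 0.41, and 0.002) and MYC (-0.14, adjusted p = 0.58, and 0.17) were not called with all 16 libraries.

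**Figure D4:**
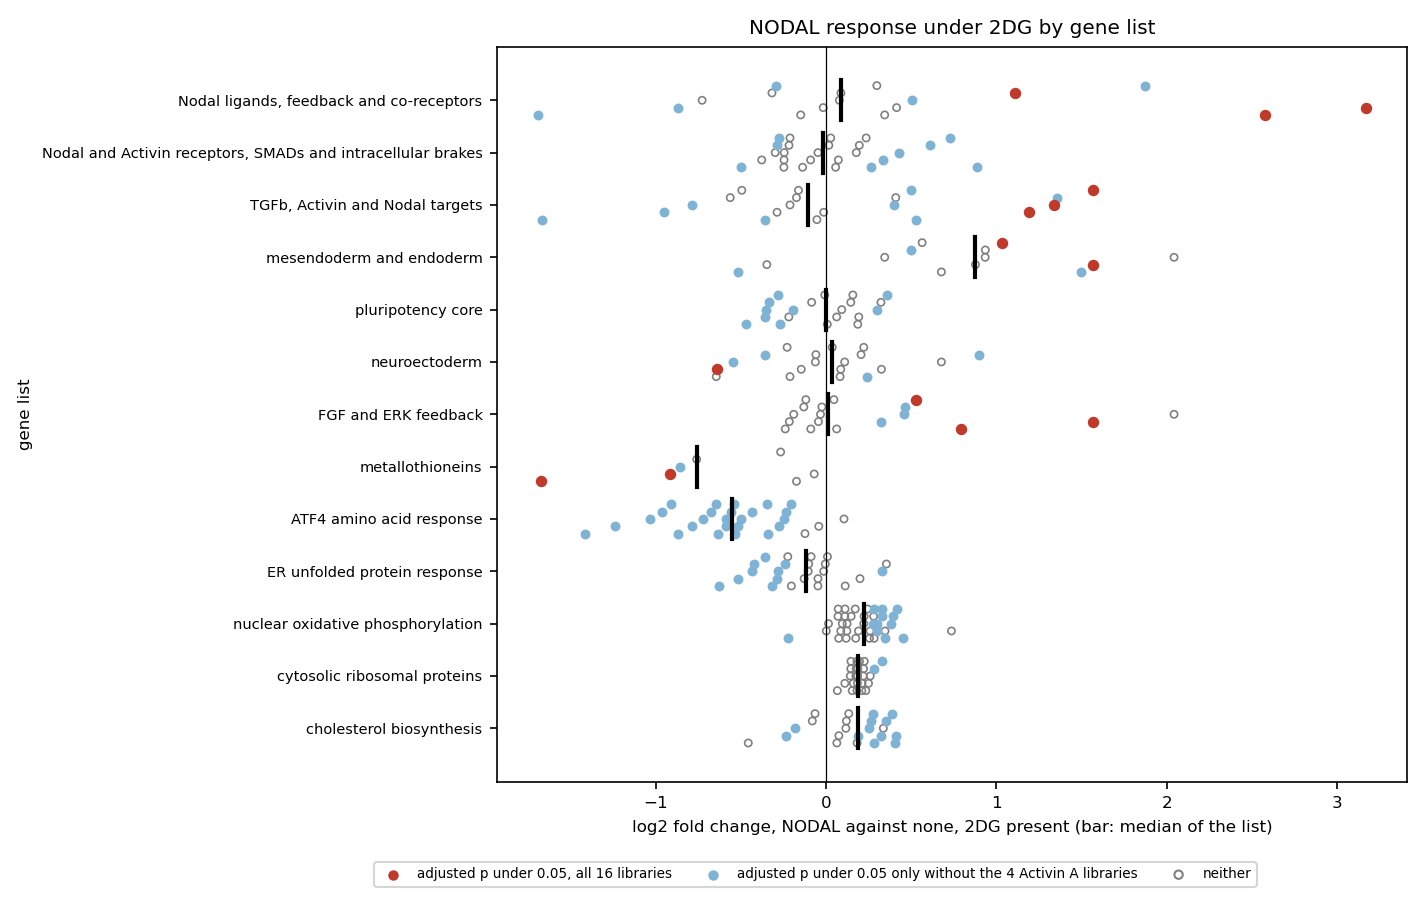
NODAL response under 2DG (log2 fold change) of the tested genes of 13 lists, each point a gene and each bar a list's median. Red points passed the test with all 16 libraries, light blue points only without the 4 Activin A libraries, and open points in neither. Called genes sit in the Nodal, target, mesendoderm, neuroectoderm, FGF and metallothionein lists, and all but 1 of the ATF4 genes lie left of 0.

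The fold changes of the pluripotency genes ran from -0.47 to 0.36. Of 20 tested, 0 were called by limma or edgeR and 1 was lower by DESeq2, with a median of -0.00. At an unadjusted p under 0.05, 2 were higher and 6 lower, against 8.08% and 8.65% of all genes. Without the Activin A libraries 2 were called higher and 7 lower, against 7.26% and 10.6%. POU5F1 read 31410 and 34140 in E7+2DG and 42990 and 40970 with NODAL, beside 42330 and 48150 in E7 (log2 0.36, SE 0.15, adjusted p = 0.27, and 0.0051 without those libraries). NANOG read 3700 and 3954, then 4681 and 4727, beside 5112 and 5499 in E7 (log2 0.30, SE 0.11, adjusted p = 0.2, and 0.0028). SOX2 read 4879 and 5281, then 4496 and 4378 (log2 -0.19, SE 0.08, adjusted p = 0.27, and 0.047), LIN28A, an RNA-binding protein of stem cells, 38920 and 43490, then 32170 and 32290 (log2 -0.35, adjusted p = 0.1, and 0.001), and FGF2 2422 and 2118, then 1596 and 1669 (log2 -0.47, adjusted p = 0.21, and 0.0004). POU5F1 and NANOG thus lay nearer E7 with NODAL than without it. SOX2, LIN28A and FGF2 were lower with NODAL than with 2DG alone, and their place relative to E7 is not given here. Each of the 5 genes had groups that did not overlap, as did 60.3% of all genes tested.

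**Figure D5:**
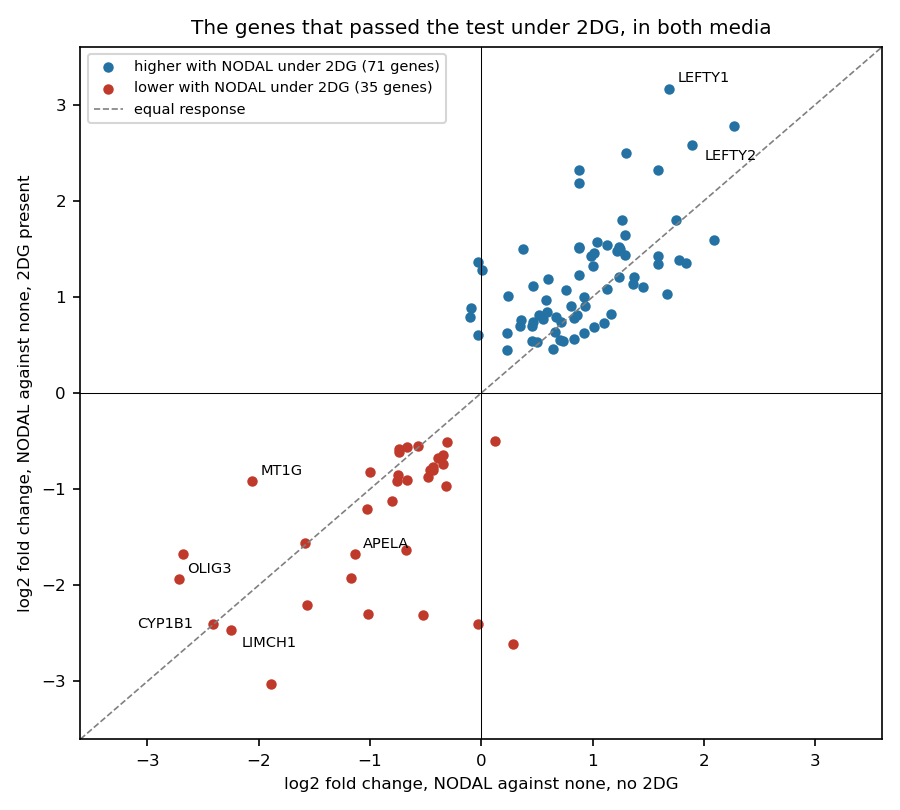
Log2 fold change with NODAL without 2DG (horizontal) and with 2DG (vertical) for the 106 genes called under 2DG, which were chosen by the vertical value. Of the 71 risers 67 lie right of 0 and of the 35 that fell 33 lie left of 0, and the dashed line marks equal responses.

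NODAL was also given without 2DG, in libraries that the comparison under 2DG does not use. The spread of each gene is again shared through the model, and its part in the shares of genes called in both was not tested. There 3601 genes were called (21.5%). Of the 71 genes higher under 2DG, 56 were called higher there as well (78.9%), against 10.6% of all genes called higher, and 67 had a positive fold change. Of the 35 lower, 25 were called lower there (71.4%), against 10.9% of all genes, and 33 had a negative one. None of the 106 was called in the opposite direction. Without the Activin A libraries the directions were more mixed. Of the 1198 genes then higher under 2DG, 397 were called higher without it (33.1%, against 19.4% of all genes) and 271 lower (22.6%, against 19.8%). Of the 1753 lower, 495 were called lower (28.2%) and 362 higher (20.7%). The call without 2DG fell to 836 genes without E7 replicate 2, 1557 without E7+NODAL replicate 1 and 875 without its replicate 2, and rose to 6474 (39.2%) without the Activin A libraries.

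Whether the response differed with 2DG was tested by the interaction term, which called 313 genes (1.87%), 165 with a higher response under 2DG (0.987%) and 148 with a lower one (0.885%). LEFTY1 rose by 1.69 without 2DG and by 3.17 with it, an interaction of 1.48 (SE 0.37, adjusted p = 0.053). CYP1B1 fell by 2.41 without 2DG and fell by 2.40 with it (interaction 0.01, SE 0.29, adjusted p = 0.98). MIXL1 rose by 1.67 without 2DG and by 1.03 with it (interaction -0.64, SE 0.29, adjusted p = 0.19). Among the 106 genes the interaction was called for 4. MT1G fell by 2.06 without 2DG and by 0.92 with it (interaction 1.14, SE 0.24, adjusted p = 0.043). The other three were chosen after their values were seen. LPAR6, a lysophosphatidic acid receptor gene, read 22.8 and 26.1, then 58.1 and 71.2 under 2DG, and 82.3 and 62.9, then 72.9 and 67.8 without it (interaction 1.40, adjusted p = 0.049). PALLD, an actin-bundling protein, read 827 and 857, then 594 and 599 under 2DG, and 605 and 603, then 634 and 681 without it (interaction -0.62, adjusted p = 0.045). MYOF, a ferlin of membrane repair, read 97.7 and 57.6, then 15.4 and 8.38 under 2DG, and 25.9 and 12.2, then 23.2 and 20.7 without it (interaction -2.90, adjusted p = 0.049). The interaction count depended on single libraries. Limma called 0 genes without E7 replicate 2 or without any 1 library of E7+2DG, E7+NODAL+2DG, E7+NODAL, E7+TGFb or E7+TGFb+2DG, with 2586 to 3967 at an unadjusted p under 0.05. It called 691 without E7 replicate 1, 857 or 885 without 1 library of E7+ActivinA+2DG, 3892 or 3886 without 1 of E7+ActivinA, and 4811 (29.1%) without all 4. With all libraries edgeR called 284.

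The other ligands were compared with NODAL under 2DG directly. Both comparisons use the same E7+NODAL+2DG libraries, so values stand side by side. Of the 71 risers, 33 were called lower and 14 higher with Activin A than with NODAL. Of the 35 that fell, 20 were higher and 3 lower with Activin A. With TGFb, 55 of the 71 were lower and 0 higher, and 34 of the 35 were higher and 0 lower. The same libraries chose these genes, and 9.85% of all genes were called against Activin A and 1.40% against TGFb. With 2DG, LEFTY1 read 22.6 and 19.6 in TGFb medium and 2643 and 1484 with Activin A. Its level with NODAL was higher than with TGFb by 3.42 (SE 0.26, adjusted p = 2.3e-05; 1.40% of genes called) and lower than with Activin A by a log2 difference of -3.07 (SE 0.26, adjusted p = 8.3e-06; 9.85% called). NODAL and TGFb differ in dose by mass, and NODAL and Activin A were given at the same mass per volume. EBF2 read 88.2 and 88.1 with TGFb, 300 and 346 with NODAL and 1536 and 1220 with Activin A (differences 1.86 and -2.08, adjusted p = 8.1e-05 and 6.5e-06). LIMCH1 read 138 and 158 with TGFb, 19.1 and 19.9 with NODAL and 22.9 and 50.5 with Activin A. It was lower with NODAL than with TGFb (log2 -2.86, adjusted p = 0.0042) and not called between NODAL and Activin A (-0.78, SE 0.41, adjusted p = 0.26). The count against TGFb fell to between 22 and 28 without any 1 library of E7+NODAL+2DG or E7+TGFb+2DG, and that against Activin A to 651 and 658 without replicate 1 or 2 of E7+NODAL+2DG.

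Between NODAL and Activin A under 2DG the genes furthest apart were not all pathway targets. LEFTY2 (log2 -4.51, adjusted p = 4.8e-06), the Notch target HEY1 (-3.86, adjusted p = 2.3e-05) and MIXL1 (-3.39, adjusted p = 8.4e-07) were lower with NODAL, as was PAG1, an adaptor that anchors CSK, which read 10.9 and 6.28 with NODAL and 279 and 270 with Activin A (-4.89, adjusted p = 3.6e-06). HES3, a Hes family repressor, read 858 and 770 with NODAL and 199 and 136 with Activin A (2.30, adjusted p = 1.6e-06), and NEUROG3, a proneural and endocrine factor, 185 and 194 and then 37.2 and 38.7 (2.29, adjusted p = 8.6e-06). BLACAT1, a long noncoding RNA, and TMEM266, a voltage-sensing membrane protein, were also higher with NODAL (2.31 and 2.27, adjusted p = 5.1e-05 and 0.00031). CYP1B1 read 168 and 147 with Activin A and 199 and 232 with TGFb, so that 41.8 and 31.4 with NODAL was the lowest of the 3 (log2 -2.09 and -2.54, adjusted p = 2.6e-05 and 3.5e-05).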

How the data were processed

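RNA was measured in 16 libraries of H1 cells, 2 for each of 8 groups taken from the sample titles. The deposited values are a signal: per the submitters' processing notes, which name hg38, STAR, DESeq2 1.26.0, featureCounts 1.5.3 and Trimmomatic 0.36 without the role of each, the authors counted reads per gene and divided them by a size factor per library. The strand setting and annotation release are not given in the sources used here. Every value (100%) was a whole multiple of its library's smallest value within a relative tolerance of 1e-06, so whole reads were recovered. All 17738 genes had at least 1 read in every library.

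Here log2(value + 1) was fitted with limma 3.58.1 in R 4.3.3 with an intensity trend and 8 group means over all 16 libraries, for genes reaching 10 in 2 or more libraries. Tests were two-sided and adjusted by Benjamini-Hochberg over all genes of a comparison. The script was tested on simulated counts. edgeR 4.0.16 and DESeq2 1.42.0 ran on the recovered reads as alternatives. Others were TMM factors, total scaling, quantile normalization, pseudocounts of 0.5 and 8, robust fitting, a mean of 50 or more, no filter, only the 4 libraries compared, no Activin A libraries, the replicate block, a fold threshold, and each library left out in turn, where a group left with 1 library took its spread from the rest. Positions came from GENCODE 29, in which 17317 of 17738 symbols matched 1 gene, and promoters from RefSeq. No batch is given.

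The members and gene lists were chosen with earlier results of these data known. Genes were named by rule: the 12 called genes of largest change in each direction with a higher group mean of at least 100 and no overlap; members of 6 lists (Nodal ligands, receptors, targets, mesendoderm, pluripotency, neuroectoderm); up to 4 called members of each other list; 6 in each direction that run opposite to 2DG in TGFb medium; 6 in each direction for the interaction; 4 in each direction against TGFb and against Activin A; and 11 stress and glucose genes. Some genes that this rule names are not reported here. Others are said to be chosen after their values were seen.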

Additional observations from a re-analysis of the deposited data

Results flagged for a closer look

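The response to NODAL differed with 2DG, by the test of the interaction term, in 313 genes. This number depended on single libraries as described for the interaction above. Among the largest terms, those with a higher response under 2DG were 1.46 for SNRPGP10 (log2 fold change -0.92 without 2DG and 0.54 with it), 1.39 for DLEU2 (-0.66 and 0.73), 1.32 for HMGB1P10 (-0.78 and 0.54), 1.18 for the mitochondrial import gene TIMM8B (-0.81 and 0.36), 1.15 for TMEM126A (-0.82 and 0.33) and 1.14 for MT1G (-2.06 and -0.92). SNRPGP10 and HMGB1P10 are pseudogenes, whose reads may be shared with their parent genes.

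Terms with a lower response under 2DG were -1.83 for ZNF469 (1.23 without 2DG and -0.60 with it), -1.76 for GRIN2D, an NMDA receptor subunit (2.08 and 0.32), -1.73 for NFASC, neurofascin (2.19 and 0.46), -1.66 for SDK2 (1.38 and -0.28) and -1.57 for the nuclease scaffold SLX4 (1.22 and -0.34). GRIN2D read 108 and 106 in E7 and 462 and 450 with NODAL, against 95.8 and 83.7 in E7+2DG and 119 and 106 in E7+NODAL+2DG. Among listed genes the term was also called for the integrin gene ITGA5 (-1.14, from 0.96 without 2DG to -0.17 with it) and the RNA-binding pluripotency gene L1TD1 (0.80, from -0.60 to 0.19). Adjusted p was 0.038 to 0.049 in all 13. The interaction itself fell with transcript length across genes (Spearman's rho = -0.42, n = 16335 genes), and the part of length in these terms was not tested.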

How the results depend on the processing

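The replicate numbers did not pair the groups compared: replicate differences of E7+2DG and E7+NODAL+2DG correlated at -0.01. Of 28 pairs of groups 3 exceeded 0.1, up to 0.242 for E7+ActivinA and E7+ActivinA+2DG. Some were negative, down to -0.393 for E7 and E7+ActivinA, with -0.249 for E7+2DG and E7+ActivinA. The replicate block gave 81 calls for NODAL under 2DG in place of 106 (78 kept), 151 in place of 234 against TGFb, and 0 for the interaction, with 4163 genes at an unadjusted p under 0.05 in limma. The NODAL under 2DG count was 3426 with only the 4 libraries compared, 2951 without the Activin A libraries, 57 when changes under 1 on the log2 scale were set aside and 278 with DESeq2 (149 higher, 129 lower, 98 kept), and 98 to 135 under the other scalings, pseudocounts, filters, robust fitting and edgeR. Without the Activin A libraries the counts were 6474 for NODAL without 2DG, 4811 for the interaction, 7594 for 2DG in E7, 4111 for 2DG in TGFb medium, 6348 for E7+NODAL+2DG against E7 and 2616 against TGFb, and 402 and 451 for the genes opposite to 2DG. Why these counts were larger than with all 16 libraries was not tested. With 1 library left out the ranges were 11 to 1768 for NODAL under 2DG, 836 to 2834 for NODAL without 2DG, 0 to 691 for the interaction among libraries of its own groups, 1590 to 4236 for 2DG in E7, 370 to 402 for 2DG in TGFb medium, 1045 to 2414 for E7+NODAL+2DG against E7, 22 to 28 against TGFb, 651 to 1323 against Activin A, and 3 to 12 and 2 to 5 for the genes opposite to 2DG. Of the named genes' values under all alternatives, 4483 stayed on their side of the threshold, 139 lost and 229 gained a call, and 0 changed direction with a call. Counting error is largest for genes of few reads, such as LEFTY2 in E7+2DG.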

Other observations

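Nuclear genes of oxidative phosphorylation, which encode subunits of the respiratory chain, had a median log2 fold change of 0.22 with NODAL under 2DG, with 36 of 37 positive, and without 2DG a median of -0.51, with 16 called lower and 0 higher. Cytosolic ribosomal protein genes had a median of 0.18 under 2DG with all 25 positive, and -0.48 without 2DG, with 15 called lower and 0 higher. Of all genes, 10.9% were called lower and 10.6% higher without 2DG. Under 2DG 0 members of either list were called by limma, edgeR or DESeq2. At an unadjusted p under 0.05 in limma, 1 was higher and 1 lower of the first list and 0 of the second, against 8.08% and 8.65% of all genes. Without the Activin A libraries 11 of the 37 were called higher and 1 lower, and 2 of the 25 higher, against 7.26% of all genes higher and 10.6% lower. In that setting the interaction was called higher for 33 of the 37 and for all 25, against 2323 of all 16512 genes. Both lists hold short transcripts, fold changes followed transcript length with rho = -0.34 under 2DG and 0.24 without it, and the part of length was not tested.

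Cholesterol synthesis genes had a median of 0.19 under 2DG, with 17 of 22 positive, and the ER unfolded protein response list a median of -0.12, with 19 of 24 negative. Limma and edgeR called 0 in either, as did DESeq2. At an unadjusted p under 0.05 in limma there were 6 higher and 1 lower of the first and 0 higher and 7 lower of the second. Of all genes, 8.08% were higher and 8.65% lower at that threshold. Without the Activin A libraries 10 of the 22 were called higher and 2 lower, and 1 of the 24 higher and 9 lower, against 7.26% and 10.6% of all genes. With NODAL in the absence of 2DG and all 16 libraries, the cholesterol list had a median of -0.22, with 2 called higher and 6 lower. The ER list had a median of -0.34 there, with 2 higher and 11 lower, against 10.6% and 10.9% of all genes. Glycolysis genes had a median of -0.01 under 2DG over 24 tested.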
